A study of Mus musculus with 30 samples.

Results

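The HOX genes are the mammalian homeobox genes that lie in 4 clusters, Hoxa, Hoxb, Hoxc and Hoxd, and they were taken here as every row of the expression table whose symbol is a cluster letter followed by a paralogue number. The rule found 39 genes of 20889 in the table, 11 in the Hoxa cluster on chromosome 6, 10 in Hoxb on chromosome 11, 9 in Hoxc on chromosome 15 and 9 in Hoxd on chromosome 2. The same 39 symbols are in the RefSeq gene table of the mouse. No measured value entered the choice.

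RNA came from the testis of wild-type C57BL/6 mice on postnatal days 0, 7, 12 and 14 (P0, P7, P12 and P14) in a study of transcription and imprinting in the early male germline. The labels call all of these cells spermatogonia, the germ cells that maintain and start sperm production. Cells carrying an Oct4-GFP reporter were sorted by flow cytometry at P0 and P7, and cells carrying an Id4-GFP reporter at P7. Cells were selected with magnetic beads for KIT, a receptor of differentiating spermatogonia, at P7, P12 and P14, and for THY1, an antigen found on undifferentiated spermatogonia but also on other testis cells, at P0, P7, P12 and P14. A further P7 column is labelled Vasa and Thy1. The protocol names a Vasa-GFP sort at P0 only, so how those cells were obtained is not clear, and they are called P7 VASA THY1. A reporter or a surface antigen defines these groups, and the bead selections do not exclude other cells that bind the antibody.

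The deposited values are FPKM, fragment numbers scaled by transcript length and library size, so levels can be set beside each other between genes. There is 1 value per group, in 11 columns. The labels list 2 libraries behind each of P7 KIT, P12 KIT, P0 THY1, P7 THY1 and P12 THY1 and 1 behind each of the other 6 columns, but each column of the table holds a single value, so no spread, error or test can be given for any difference below. Differences are of log2(FPKM + 1). A gene is called higher or lower where that difference is at least 1, which is 2-fold on this scale, and the higher column has at least 1 FPKM. This is a rule of size and not a test, and it understates the fold of genes with low values.

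The columns were checked against marker genes of testis cells. Summed over 8 germ cell markers, levels lay between 1253 and 2146 FPKM in the 10 columns other than P0 THY1, where the sum was 733 FPKM. All 8 germ cell markers reached 1 FPKM in every column except P14 KIT, where 7 did. P0 THY1 stood apart: its 10 fibroblast and stroma markers summed to 7006 FPKM, against 56.3 to 1408 FPKM in the other columns, and its 8 peritubular myoid markers to 1423 FPKM, against 10.8 to 440 FPKM. None of these stroma or myoid markers was listed at 0 in any column. Markers of other cells were high in further columns. The 8 macrophage markers summed to 339 and 235 FPKM in OCT4-GFP cells at P0 and P7, and to 375 FPKM in P0 THY1. In the other columns they summed to between 3.39 and 80.9 FPKM. The 7 Leydig markers summed to 1100 FPKM in P7 KIT and 655 FPKM in P14 KIT, against 242 FPKM in P0 THY1. In bulk samples such as these, fewer cells of a type and less RNA per cell cannot be told apart. Depth is not recorded in FPKM. The smallest steps between low values point to the least fragments per FPKM in P7 THY1, where a step was worth 3.71 times that in P14 THY1, a figure that rests on 14.8% of 237 genes and is uncertain.

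HOX genes encode homeodomain transcription factors that give cells along the body axis their positional identity. Within a cluster the genes stand in the order of their paralogue numbers, low numbers being used toward the head and early, high numbers toward the tail and late. HOX proteins bind DNA together with the PBX, MEIS and PKNOX homeodomain cofactors. Trithorax proteins such as MLL1 keep the clusters active and Polycomb complexes keep them silent. Mesenchymal and stromal cells of an organ keep the HOX code of the region in which they arose, and in the mouse testis Hoxa4 has long been known for its transcript in meiotic and later germ cells.

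Promoter sequences were available for 22 of the 39 genes in a RefSeq table of build GRCm38.p6, each covering 250 bases before and 50 bases after an annotated start. The promoters of Hoxd8, Hoxd9 and Hoxd10 are printed because these neighbours gave most of the Hoxd signal after P0, and that of Hoxb4 because it stands for the cluster that behaved differently. They lie at chr2:74704365-74704664, chr2:74697513-74697812, chr2:74691641-74691940 and chr11:96318017-96318316, all on the plus strand, and are written 5′ to 3′. Capitals mark matches to the searched motifs.
Hoxd8: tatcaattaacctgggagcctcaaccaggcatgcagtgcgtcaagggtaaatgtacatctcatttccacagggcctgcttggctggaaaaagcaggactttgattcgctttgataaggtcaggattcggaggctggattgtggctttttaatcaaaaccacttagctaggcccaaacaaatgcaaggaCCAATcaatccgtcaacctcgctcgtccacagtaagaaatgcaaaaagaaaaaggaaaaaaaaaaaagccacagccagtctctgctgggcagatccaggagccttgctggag
Hoxd9: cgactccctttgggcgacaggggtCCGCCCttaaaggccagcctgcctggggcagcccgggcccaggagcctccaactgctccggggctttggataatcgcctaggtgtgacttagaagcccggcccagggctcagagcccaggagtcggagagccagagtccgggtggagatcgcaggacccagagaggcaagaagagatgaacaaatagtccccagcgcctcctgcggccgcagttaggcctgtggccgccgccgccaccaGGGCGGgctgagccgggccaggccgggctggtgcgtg
Hoxd10: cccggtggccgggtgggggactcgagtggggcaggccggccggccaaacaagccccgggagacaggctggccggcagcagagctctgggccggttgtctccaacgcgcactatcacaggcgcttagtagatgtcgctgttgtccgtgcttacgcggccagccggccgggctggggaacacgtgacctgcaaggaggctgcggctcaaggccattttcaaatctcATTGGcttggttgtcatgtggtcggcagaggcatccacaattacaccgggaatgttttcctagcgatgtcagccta
Hoxb4: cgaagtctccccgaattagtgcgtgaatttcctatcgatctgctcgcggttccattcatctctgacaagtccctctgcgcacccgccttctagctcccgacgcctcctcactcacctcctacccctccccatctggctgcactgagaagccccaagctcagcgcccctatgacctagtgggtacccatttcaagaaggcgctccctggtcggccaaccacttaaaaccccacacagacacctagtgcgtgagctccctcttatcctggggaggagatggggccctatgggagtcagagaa

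Short motifs were searched on both strands, and their share among all 32851 promoters of the table is given beside each. TATAAA, the core of the TATA element, occurs in 13.6% of them and CCAAT, bound by NF-Y, in 37.4%. GGGCGG, bound by SP1, occurs in 35.7%. For partners of HOX proteins, TGACAG, a MEIS motif, occurs in 19.2% and TGATTNAT, a motif of PBX with HOX, in 3.22%. The matches in the printed windows did not overlap. The Hoxd8 window held 1 CCAAT match at bases 189 to 193, counted from its first base. Hoxd10 also held 1 CCAAT match, read on the opposite strand, at bases 225 to 229. The Hoxd9 window held GGGCGG at bases 264 to 269 and, on the opposite strand, at bases 25 to 30. No searched motif was found in the Hoxb4 window. The 4 windows differed in CpG content, with 6 CpG sites in Hoxd8, 20 in Hoxd9, 22 in Hoxd10 and 14 in Hoxb4, beside a median of 7 over all promoters. The neighbours Hoxd8, Hoxd9 and Hoxd10, whose levels followed a similar order over the columns, thus shared no one of these motifs in all 3 windows.

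Levels of HOX transcripts were low in most columns. The 39 genes summed to 23.3 and 14.9 FPKM in OCT4-GFP cells at P0 and P7 and to 13.6 FPKM in P7 ID4-GFP cells. The sum was 15.7 FPKM in P7 VASA THY1, it was 38.4, 29.8 and 24.0 FPKM in KIT cells at P7, P12 and P14, and it was 158, 34.1, 39.3 and 56.1 FPKM in THY1 cells at P0, P7, P12 and P14. P0 THY1 was therefore 11.6-fold above P7 ID4-GFP, the lowest column. Without P0 THY1 the sums lay between 13.6 and 56.1 FPKM, and the GFP columns and P7 VASA THY1 remained below every KIT and THY1 column.

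The number of genes detected at 1 FPKM or more set P0 THY1 apart as well. In P0 THY1, 32 of the 39 HOX genes reached 1 FPKM and none was listed at 0. In the other columns between 4 and 11 genes reached 1 FPKM, and between 2 and 9 were listed at 0. Of all 20889 genes, between 55.5% and 68.9% reached 1 FPKM, with the highest share in P0 THY1. For 18 HOX genes P0 THY1 was the only column at 1 FPKM or more, and 14 genes reached 1 FPKM in some other column. Hoxb7 and Hoxd8 reached it in all 11 columns. The 7 genes Hoxa13, Hoxb1, Hoxb8, Hoxc11, Hoxc12, Hoxd12 and Hoxd13 stayed below 1 FPKM everywhere, and 5 of them are at the posterior end of their cluster. A value listed at 0 may be a failed estimate, as the Polycomb partner gene Jarid2 is listed at 0 in P0 THY1 and at 27.9 to 74.1 FPKM in the other columns.

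**Figure D1:**
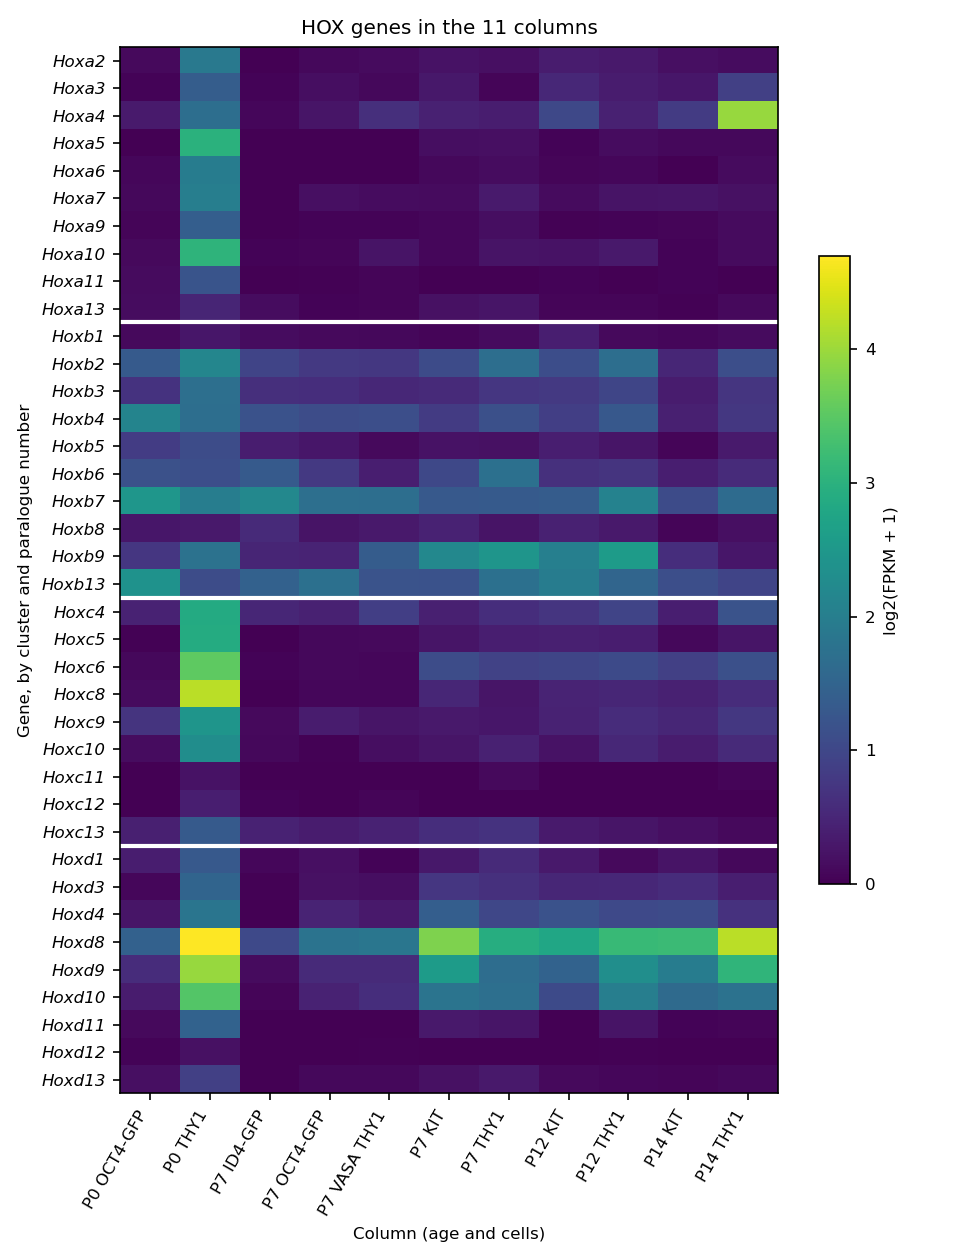
Level of the HOX genes (rows, by cluster and paralogue number, with white lines between clusters) in each of the 11 columns (age and cells), as log2(FPKM + 1) with 1 value per group. The P0 THY1 column is bright across the Hoxa, Hoxc and Hoxd clusters, Hoxd8 is bright in all KIT and THY1 columns, and Hoxa4 is bright in P14 THY1.

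The clusters differed in how they varied over the columns. The 29 genes of Hoxa, Hoxc and Hoxd together ranged 52.1-fold over the columns, between 2.70 FPKM in P7 ID4-GFP and 141 FPKM in P0 THY1. The Hoxb sum ranged 3.99-fold, between 4.34 FPKM in P14 KIT and 17.3 FPKM in P0 THY1. At P0, the Hoxb sum was 17.2 FPKM in OCT4-GFP cells, against 17.3 FPKM in THY1 cells, a ratio of 0.996, while the sum of the other 3 clusters was 6.05 FPKM in OCT4-GFP cells, against 141 FPKM in THY1 cells, a ratio of 0.0431. Without P0 THY1 the ranges were 4.34 to 17.2 FPKM for Hoxb and 2.70 to 49.3 FPKM for the other 3 clusters.

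The Hoxa sum reached 31.2 FPKM in P0 THY1, stood at 16.4 FPKM in P14 THY1 and was between 0.411 and 4.04 FPKM in the other 9 columns. In P14 THY1 a single gene, Hoxa4 with 14.7 FPKM, made up most of it. The Hoxc sum was 51.2 FPKM in P0 THY1 and no more than 4.51 FPKM elsewhere. The Hoxd sum was 58.2 FPKM in P0 THY1, was between 10.8 and 28.3 FPKM in the KIT and later THY1 columns, and was at most 4.07 FPKM in the GFP and VASA columns. In each of Hoxa, Hoxc and Hoxd the 3 GFP columns lay below all 7 KIT and THY1 columns, without overlap. P7 VASA THY1, also labelled Thy1, lay below these 7 columns too, at 1.66, 1.78 and 4.07 FPKM. In Hoxb the groups overlapped, with 8.58 to 17.2 FPKM in the GFP columns and 4.34 to 15.9 FPKM in the KIT and THY1 columns after P0. The share of all genes with such a split of columns was not counted, here or below.

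The make-up of the HOX signal followed. Hoxb gave 74.0% and 57.7% of it in OCT4-GFP cells at P0 and P7 and 80.1% in P7 ID4-GFP. It gave 26.8%, 39.7% and 18.1% in KIT cells at P7, P12 and P14, and 10.96%, 44.6%, 40.5% and 12.2% in THY1 cells at P0, P7, P12 and P14. Hoxd gave between 9.49% and 27.4% in the GFP columns and between 36.2% and 62.8% in the KIT and THY1 columns. Hoxd8 had the highest level of any HOX gene in 9 columns, and Hoxb7 in P0 OCT4-GFP and P7 ID4-GFP.

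**Figure D2:**
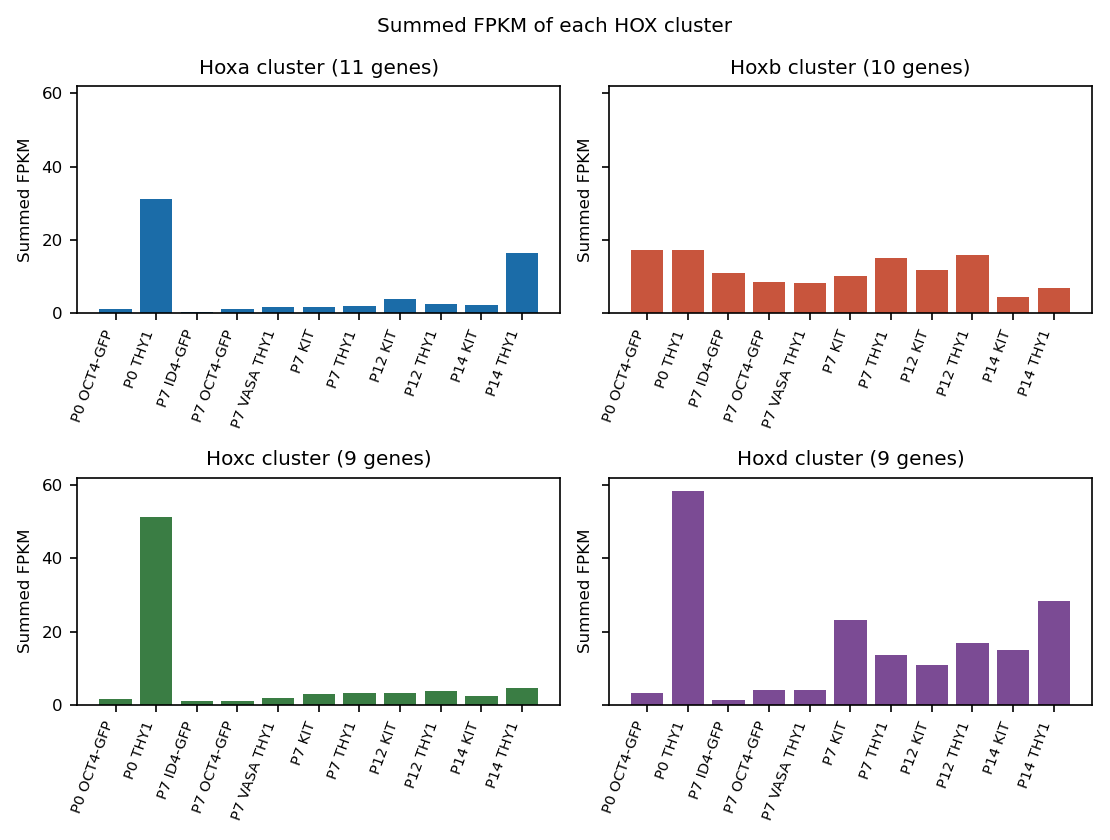
Summed FPKM of each HOX cluster (y axis, starting at 0 and on the same scale in all panels) in each of the 11 columns, with 1 value per bar. Hoxa, Hoxc and Hoxd are highest in P0 THY1, at 31.2, 51.2 and 58.2 FPKM, whereas the Hoxb bars stay between 4.34 and 17.3 FPKM.

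The highest column of a gene also differed between the clusters. P0 THY1 was the highest column for 30 of the 39 genes. These were 9 of 11 Hoxa genes, all 9 Hoxc genes, all 9 Hoxd genes and 3 of 10 Hoxb genes. The share of all genes that were highest in P0 THY1 was not counted. Over all genes the median level was 5.05 FPKM in P0 THY1, against 2.04 to 3.67 FPKM in the other columns. Hoxa4 was highest in P14 THY1. In Hoxb, Hoxb4, Hoxb7 and Hoxb13 were highest in P0 OCT4-GFP, Hoxb6 in P7 THY1, Hoxb9 in P12 THY1, Hoxb8 in P7 ID4-GFP and Hoxb1 in P12 KIT, the last pair at levels below 1 FPKM.

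By position, genes of paralogue numbers 4 to 8, which pattern the trunk, gave the largest share in every column. The 8 anterior genes (numbers 1 to 3) summed to 1.88 to 14.7 FPKM, the 15 central genes to 8.31 to 91.2 FPKM and the 16 posterior genes (numbers 9 to 13) to 3.01 to 52.0 FPKM. P0 THY1 had the highest sum of each class. The central class held between 46.4% and 71.1% of the HOX sum, the highest share being in P14 THY1, which has the Hoxa4 signal. In P0 THY1 paralogue group 8, which has a Hoxb, a Hoxc and a Hoxd member, gave 42.6 FPKM or 26.98% of the sum, while group 12 gave 0.475 FPKM.

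At P0, OCT4-GFP cells had lower HOX levels than THY1 cells across 3 of the 4 clusters. Of the 39 genes, 23 were lower and 1 was higher, beside 16.4% of all genes lower and 8.17% higher. The median difference of the members was -1.34, beside -0.05 over all genes. Lower genes were 9 of 11 in Hoxa, 6 of 9 in Hoxc, 6 of 9 in Hoxd and 2 of 10 in Hoxb, and the gene that was higher, Hoxb13, is in Hoxb.

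Hoxc8, a trunk patterning gene, had 0.105 FPKM in P0 OCT4-GFP, against 17.4 FPKM in P0 THY1, a difference of -4.06. Its neighbour Hoxc6 had 0.0701 FPKM in P0 OCT4-GFP, against 10.6 FPKM in P0 THY1, a difference of -3.44, and Hoxc5 had a difference of -2.85. The middle of the Hoxc cluster was thus low in OCT4-GFP cells and among the highest HOX levels of THY1 cells. Hoxd9, Hoxd8 and Hoxd10 followed with differences of -3.38, -3.23 and -3.07. Hoxa5, needed for lung and neck development, was listed at 0 in P0 OCT4-GFP and had 6.99 FPKM in P0 THY1. Hoxa10, a gene of the reproductive tract and of testis descent, had 0.0825 FPKM in P0 OCT4-GFP, against 7.25 FPKM in P0 THY1, a difference of -2.93.

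Hoxb13, a posterior gene known from the prostate and hindgut, went the other way, with 4.24 FPKM in P0 OCT4-GFP, against 1.14 FPKM in P0 THY1, a difference of 1.29. Hoxb7 had 4.51 FPKM in P0 OCT4-GFP, against 2.98 FPKM in P0 THY1, and Hoxb4, a gene of blood stem cells, 3.34 FPKM in P0 OCT4-GFP, against 2.24 FPKM in P0 THY1. Neither of these differences reached 2-fold. With the 11 columns quantile normalised, Hoxb4, Hoxb7 and Hoxb13 were all higher in P0 OCT4-GFP, and 14 HOX genes were lower. In the same comparison 9 of 10 stroma markers were lower (median difference -6.67), all 8 myoid markers (median -4.18) and 6 of 7 endothelial markers (median -3.02) were lower, as were 6 of 10 Sertoli and 5 of 7 Leydig markers, and 6 of 8 germ cell markers were higher. No macrophage marker was called (median -0.15). The part of these other cells in the HOX differences was not tested.

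THY1 cells at P7 likewise had lower HOX levels than THY1 cells at P0, with 19 genes lower and none higher, beside 13.7% of all genes lower and 3.77% higher. The median difference was -0.97, beside -0.06 over all genes. Lower genes were 9 of 11 in Hoxa, 6 of 9 in Hoxc, 4 of 9 in Hoxd and none of 10 in Hoxb. The sum of Hoxa, Hoxc and Hoxd was 18.9 FPKM in P7 THY1, against 141 FPKM in P0 THY1, a ratio of 0.134, and that of Hoxb 15.2 FPKM in P7 THY1, against 17.3 FPKM in P0 THY1, a ratio of 0.878.

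The largest differences at P7 were those of Hoxc8 and Hoxa5, of the central class, with Hoxa10, of the posterior class, close behind. Hoxc8 had 0.208 FPKM in P7 THY1, against 17.4 FPKM in P0 THY1, a difference of -3.93. Hoxa5 had 0.138 FPKM in P7 THY1, against 6.99 FPKM in P0 THY1, a difference of -2.81. Hoxa10, Hoxc6, Hoxc5, Hoxd9, Hoxc4 and Hoxc9 followed with differences between -2.79 and -2.17, and the other 11 lower genes were closer to the bound. Hoxb6, Hoxb9 and Hoxb13 had differences above 0, of 0.67 at most, and under quantile normalisation these 3 genes were called higher and 14 HOX genes lower.

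Both comparisons use the same P0 THY1 column, so they are not independent. The 19 genes lower in P7 THY1 are all among the 23 lower in P0 OCT4-GFP. All 10 stroma markers were lower in P7 THY1 than in P0 THY1 (median difference -4.02), as were all 8 myoid markers (median -2.80), and 7 of 8 macrophage markers (median -3.10), and 3 of 8 germ cell and 3 of 10 Sertoli markers were higher. The part of these cells was not tested here either. With P7 VASA THY1 in place of P7 THY1, 24 HOX genes were called. Within OCT4-GFP cells, which do not use P0 THY1, no HOX gene was called higher at P7 than at P0. Hoxb4 was the only one called lower, with 1.13 FPKM at P7, against 3.34 FPKM at P0 (difference -1.02). Beside it, 2.09% of all genes were lower and 1.43% higher, so the count is near the share over all genes. Of the 10 Hoxb genes, 9 had differences below 0 (median -0.46), beside medians of -0.02 in Hoxa and Hoxc and -0.03 in Hoxd. The Hoxb sum was 8.58 FPKM at P7, against 17.2 FPKM at P0.

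**Figure D3:**
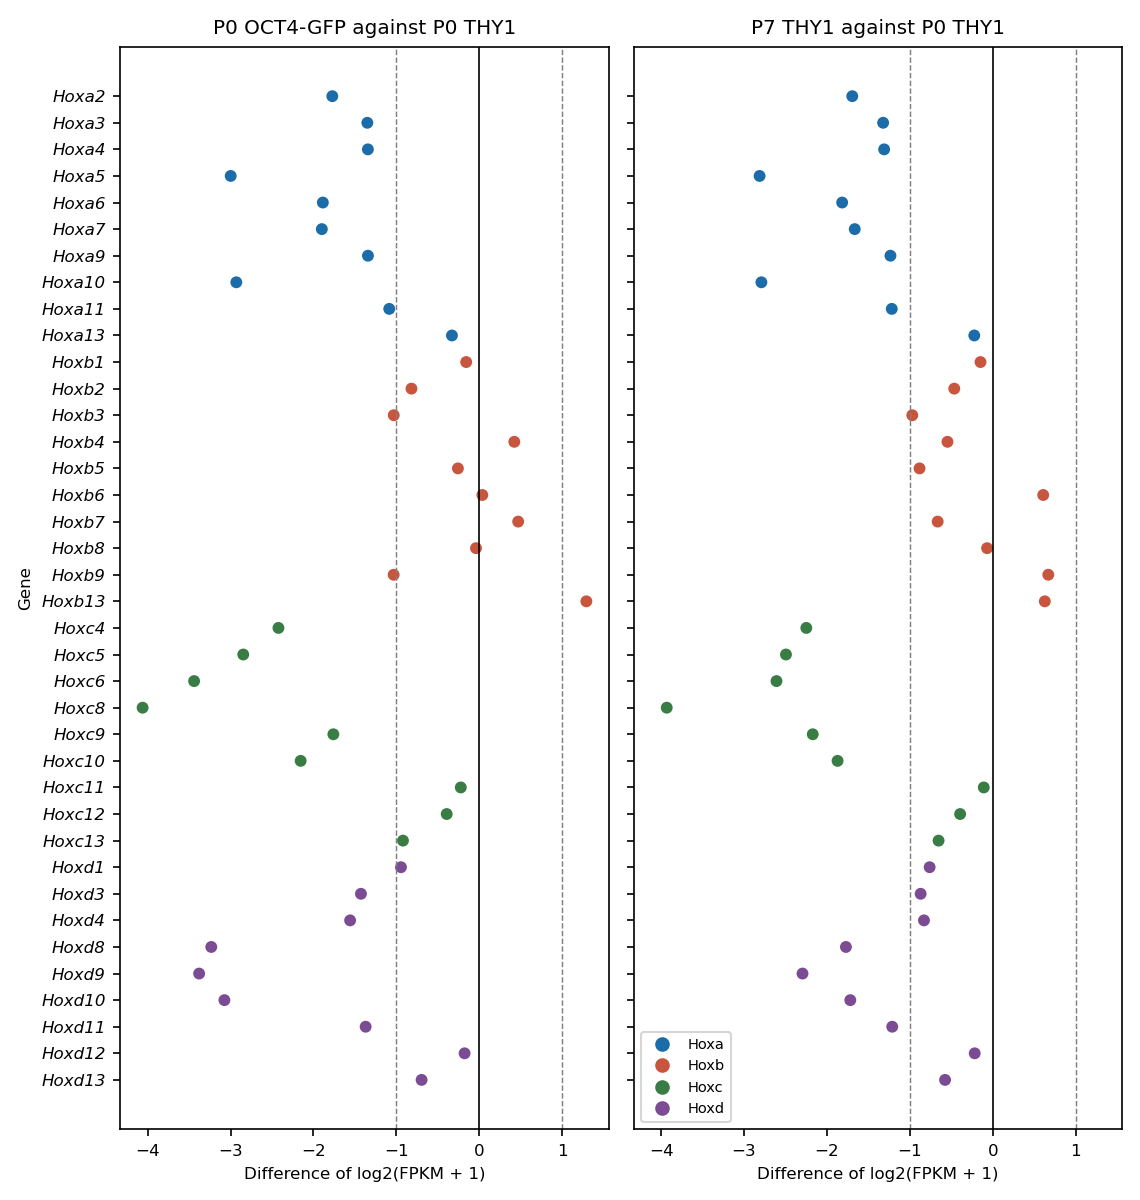
Difference of log2(FPKM + 1) for the HOX genes (y axis, coloured by cluster), for P0 OCT4-GFP minus P0 THY1 (left) and P7 THY1 minus P0 THY1 (right), which share the P0 THY1 column. Dashed lines mark 2-fold on this scale. Of the clusters, Hoxb has the median nearest 0, at -0.0986 (left) and -0.305 (right). Single Hoxb genes such as Hoxb13 (1.29, left) lie farther out than some genes of other clusters, such as Hoxd12 (-0.18, left). Hoxc8 is farthest, at -4.06 and -3.93.

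After P0, Hoxd8, Hoxd9 and Hoxd10, which lie side by side, gave most of the Hoxd signal. Their sum was 2.56 and 3.32 FPKM in OCT4-GFP cells at P0 and P7 and 1.20 FPKM in P7 ID4-GFP. It was 20.2, 8.73 and 13.2 FPKM in KIT cells at P7, P12 and P14, and 49.5, 11.1, 15.0 and 27.2 FPKM in THY1 cells at P0, P7, P12 and P14. The 3 GFP columns, and P7 VASA THY1 at 3.58 FPKM, lay below all 7 KIT and THY1 columns.

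Hoxd8 had 1.76 and 2.47 FPKM in OCT4-GFP cells at P0 and P7, 1.06 FPKM in P7 ID4-GFP and 2.57 FPKM in P7 VASA THY1. It had 12.7, 5.86 and 8.16 FPKM in KIT cells at P7, P12 and P14, and 24.9, 6.59, 7.98 and 17.4 FPKM in THY1 cells at P0, P7, P12 and P14. The highest GFP value, 2.47 FPKM, lay below the lowest KIT or THY1 value, 5.86 FPKM. Hoxd9 had 0.514 and 0.477 FPKM in OCT4-GFP cells at P0 and P7, 0.0962 FPKM in P7 ID4-GFP and 0.465 FPKM in P7 VASA THY1. It had 4.97, 1.80 and 2.91 FPKM in KIT cells at P7, P12 and P14, and 14.7, 2.21, 4.01 and 7.43 FPKM in THY1 cells at P0, P7, P12 and P14. Hoxd9 thus had the same gap between the GFP and the KIT and THY1 columns. For both genes P7 VASA THY1 lay below that gap, with the GFP columns.

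Hoxd10 had 0.287 and 0.368 FPKM in OCT4-GFP cells at P0 and P7, 0.0418 FPKM in P7 ID4-GFP and 0.539 FPKM in P7 VASA THY1. It had 2.52, 1.08 and 2.099 FPKM in KIT cells at P7, P12 and P14, and 9.84, 2.29, 3.01 and 2.42 FPKM in THY1 cells at P0, P7, P12 and P14. Unlike Hoxd8 and Hoxd9, Hoxd10 was not above P12 THY1 in P14 THY1. The annotation places Hoxd10 and Hoxd11 over each other in part, so its value is uncertain. The ratio of Hoxd9 to Hoxd8 ran between 0.0907 in P7 ID4-GFP and 0.592 in P0 THY1, and that of Hoxd10 to Hoxd8 between 0.0395 in P7 ID4-GFP and 0.395 in P0 THY1. The 3 genes therefore did not keep a fixed proportion. Hoxd4, whose annotation overlaps Hoxd3, reached 1 FPKM in P0, P7 and P12 THY1 and in all 3 KIT columns and was at most 0.384 FPKM in the GFP columns.

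Of the 10 Hoxb genes, 5 and 3 reached 1 FPKM in OCT4-GFP cells at P0 and P7 and 4 in P7 ID4-GFP. Hoxb7 had 4.51 and 2.28 FPKM in OCT4-GFP cells at P0 and P7, 3.55 FPKM in P7 ID4-GFP and 2.25 FPKM in P7 VASA THY1. It had 1.49, 1.59 and 1.11 FPKM in KIT cells at P7, P12 and P14, and 2.98, 1.51, 3.22 and 2.12 FPKM in THY1 cells at P0, P7, P12 and P14. The 3 KIT columns lay below the GFP columns, and the THY1 columns overlapped with them. Hoxb4 had 3.34 and 1.13 FPKM in OCT4-GFP cells at P0 and P7, 1.28 FPKM in P7 ID4-GFP and 1.18 FPKM in P7 VASA THY1. It had 0.761, 0.819 and 0.338 FPKM in KIT cells at P7, P12 and P14, and 2.24, 1.22, 1.44 and 0.699 FPKM in THY1 cells at P0, P7, P12 and P14. The KIT columns were again below the GFP columns, though Hoxb4 overlaps Hoxb3 in the annotation.

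Hoxb13 had 4.24 and 2.31 FPKM in OCT4-GFP cells at P0 and P7, 1.76 FPKM in P7 ID4-GFP and 1.29 FPKM in P7 VASA THY1. It had 1.27, 2.92 and 1.19 FPKM in KIT cells at P7, P12 and P14, and 1.14, 2.31, 1.88 and 0.945 FPKM in THY1 cells at P0, P7, P12 and P14. It differed less between sorts than the Hoxd genes did, and P0 OCT4-GFP stood above the rest. Hoxb9, in contrast, was higher in the KIT and THY1 columns up to P12 than in the GFP columns. It had 0.676 and 0.378 FPKM in OCT4-GFP cells at P0 and P7, 0.399 FPKM in P7 ID4-GFP and 1.58 FPKM in P7 VASA THY1. It had 3.58, 3.05 and 0.529 FPKM in KIT cells at P7, P12 and P14, and 2.43, 4.46, 4.97 and 0.216 FPKM in THY1 cells at P0, P7, P12 and P14. Both P14 columns were thus as low as the GFP columns.

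The summed Sertoli cell markers were low in the same P14 columns: 10 markers summed to 79.3 FPKM in P14 KIT and 41.0 FPKM in P14 THY1. They summed to between 18.2 and 130 FPKM in the GFP columns, to 966 FPKM in P7 VASA THY1, and to between 478 and 1813 FPKM in the P7 and P12 KIT and THY1 columns, while P0 THY1 had 311 FPKM. The 7 endothelial markers were low in the P14 columns as well, with sums of 28.5 FPKM in P14 KIT and 34.8 FPKM in P14 THY1. They summed to between 29.8 and 45.1 FPKM in the GFP columns and to 24.8 FPKM in P7 VASA THY1. In the P7 and P12 KIT and THY1 columns they summed to between 60.3 and 202 FPKM, and in P0 THY1 to 209 FPKM. The part of Sertoli, endothelial or other cells in the Hoxb9 level was not tested. Hoxb2, a hindbrain gene, was between 0.424 FPKM in P14 KIT and 3.45 FPKM in P0 THY1. Hoxb6 was between 0.320 FPKM and, in P7 THY1, 2.34 FPKM.

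**Figure D4:**
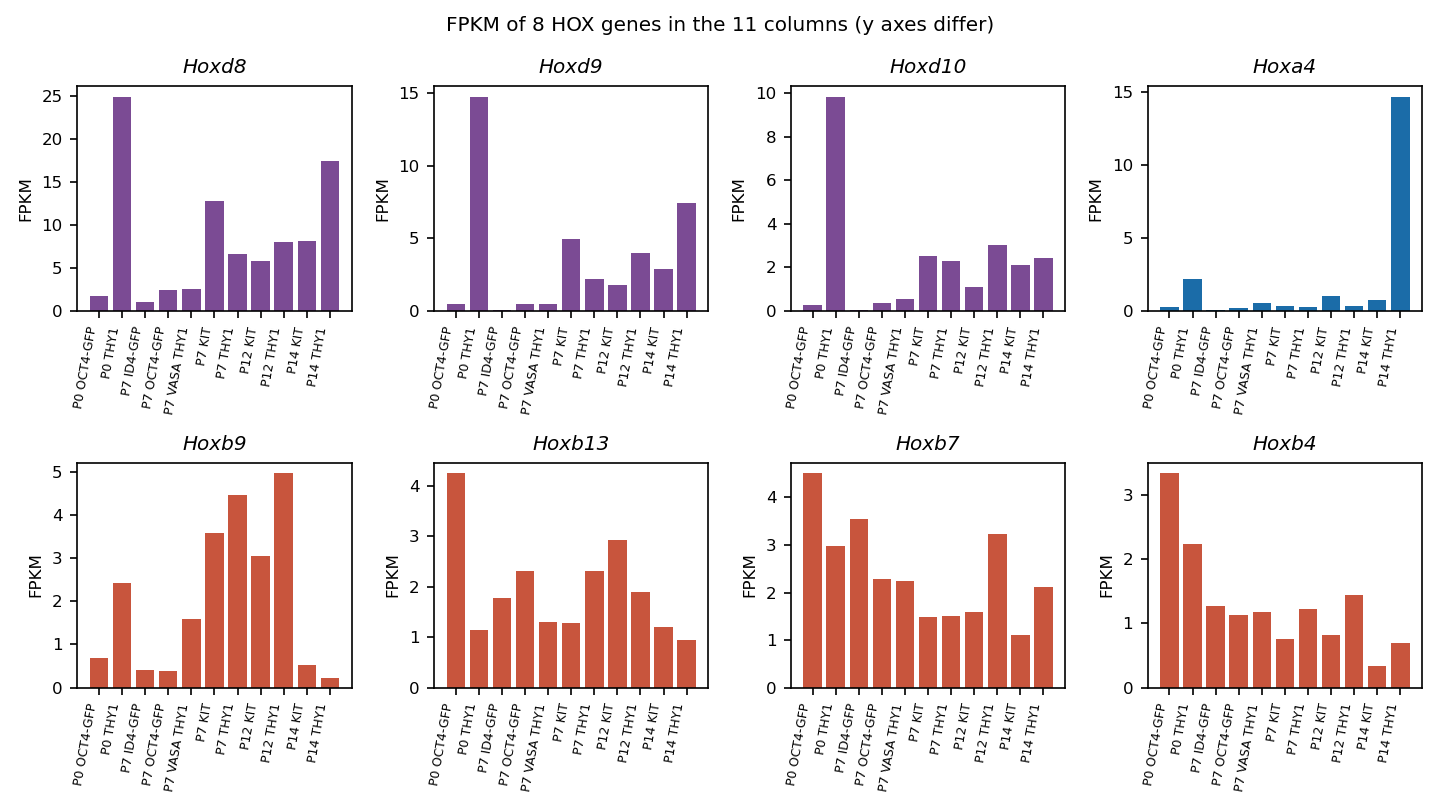
FPKM of 8 HOX genes (y axes start at 0 and differ between panels) in the 11 columns, with 1 value per bar. Hoxd8, Hoxd9 and Hoxd10 are lowest in the GFP and VASA columns, Hoxa4 stands out in P14 THY1 at 14.7 FPKM, Hoxb9 is highest in P12 THY1 at 4.97 FPKM, and Hoxb13, Hoxb7 and Hoxb4 are highest in P0 OCT4-GFP.

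Between P7 and P12, HOX levels of THY1 cells differed little. No gene was higher and 1 was lower, Hoxb6 with 0.640 FPKM in P12 THY1, against 2.34 FPKM in P7 THY1 (difference -1.03), beside 3.81% of all genes higher and 1.69% lower. With P7 VASA THY1 in place of P7 THY1 the difference of Hoxb6 was 0.31 and 4 genes were called. In P12 THY1 6 of 10 Sertoli, 5 of 8 macrophage and 4 of 8 myoid markers were higher than in P7 THY1, and their part was not tested.

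Between P12 and P14, 2 HOX genes were higher and 1 was lower in THY1 cells, beside 8.88% of all genes higher and 10.5% lower. Hoxa4 had 14.7 FPKM in P14 THY1, against 0.351 FPKM in P12 THY1, which is 41.8-fold in FPKM and a difference of 3.54. Hoxd8 had 17.4 FPKM in P14 THY1, against 7.98 FPKM in P12 THY1, a difference of 1.03, just past the bound. Hoxb9 had 0.216 FPKM in P14 THY1, against 4.97 FPKM in P12 THY1, a difference of -2.29. Of the 10 Hoxb genes, 8 had differences below 0 (median -0.36), beside medians of 0.06 in Hoxc and -0.03 in Hoxd. The Hoxb sum was 6.82 FPKM in P14 THY1, against 15.9 FPKM in P12 THY1. In this comparison 6 of 10 stroma markers were higher and 1 lower (median difference 1.12), all 10 Sertoli markers (median -4.01), 6 of 8 myoid and 5 of 7 endothelial markers were lower and 3 of 8 germ cell markers were higher, and the part of these cells was not tested. P14 THY1 is 1 library.

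Hoxa4 was high in P14 THY1 alone. It had 0.270 and 0.199 FPKM in OCT4-GFP cells at P0 and P7, 0.0626 FPKM in P7 ID4-GFP and 0.541 FPKM in P7 VASA THY1. It had 0.353, 1.02 and 0.768 FPKM in KIT cells at P7, P12 and P14, and 2.22, 0.300, 0.351 and 14.7 FPKM in THY1 cells at P0, P7, P12 and P14. Its neighbours did not share the level: in P14 THY1 Hoxa5 had 0.0759 FPKM and Hoxa3, whose annotation overlaps Hoxa4, had 0.842 FPKM, below its 1.62 FPKM in P0 THY1. Of the other members of paralogue group 4, Hoxc4 had 1.29 FPKM, Hoxb4 0.699 FPKM and Hoxd4 0.600 FPKM there.

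By the rule of size no HOX gene differed between KIT and THY1 cells at P7 or P12, and 3 did at P14. The counts at P7 and P12 depend on the setting: a pseudocount of 0.1 gave 2 genes at P7 and 3 at P12, and with P7 VASA THY1 in place of P7 THY1, 5 were higher in P7 KIT. At P7 none was higher or lower in KIT cells, beside 1.65% of all genes higher and 2.06% lower. Hoxd8 had 12.7 FPKM in P7 KIT, against 6.59 FPKM in P7 THY1 (difference 0.86), and Hoxd9 had 4.97 FPKM in P7 KIT, against 2.21 FPKM in P7 THY1 (difference 0.89). Both differences fell short of the rule of size, although Hoxd9 was 2.25-fold in FPKM. Beside them, 6 of 7 Leydig markers were higher in P7 KIT (median difference 3.16) and no stroma marker was called (median -0.10), and their part was not tested. At P12 again none was called, beside 2.7% of all genes higher and 3.82% lower, with Hoxd10 closest to the bound at 1.08 FPKM in P12 KIT, against 3.01 FPKM in P12 THY1 (difference -0.95). In P12 KIT, 6 of 7 Leydig markers were higher (median 1.51), and 9 of 10 Sertoli, all 8 myoid, 7 of 8 macrophage and 6 of 10 stroma markers were lower, and their part was not tested.

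At P14, 3 HOX genes were lower in KIT cells and none was higher, beside 9.34% of all genes lower and 4.61% higher, so that the count is near the share over all genes. Hoxa4 had 0.768 FPKM in P14 KIT, against 14.7 FPKM in P14 THY1, a difference of -3.15. Hoxd9 had 2.91 FPKM in P14 KIT, against 7.43 FPKM in P14 THY1, a difference of -1.11. Hoxd8 had 8.16 FPKM in P14 KIT, against 17.4 FPKM in P14 THY1, a difference of -1.01, and under quantile normalisation Hoxa4 was the only one of the 3 still called. Beside these, 9 of 10 stroma markers, 7 of 8 macrophage markers and 6 of 8 myoid markers were lower in P14 KIT and all 7 Leydig markers were higher (median difference 1.64), and their part was not tested. The comparison of P14 with P12 in THY1 cells uses the same P14 THY1 column.

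Within KIT cells over time, 2 genes were lower at P12 than at P7 and none was higher, beside 2.36% of all genes lower and 3.46% higher. Hoxd9 had 1.80 FPKM in P12 KIT, against 4.97 FPKM in P7 KIT (difference -1.09), and Hoxd8 had 5.86 FPKM in P12 KIT, against 12.7 FPKM in P7 KIT (difference -1.003). In the same comparison all 7 endothelial markers (median -1.58), 6 of 7 Leydig markers and 2 of 10 stroma markers were lower, and 1 Leydig and 4 of 10 Sertoli markers were higher, whose part was not tested. At P14 against P12, Hoxb9 alone was called lower, with 0.529 FPKM in P14 KIT, against 3.05 FPKM in P12 KIT (difference -1.41). None was higher, beside 7.56% of all genes lower and 2.92% higher. All 10 Hoxb genes had differences below 0 (median -0.40), beside medians of -0.06 in Hoxa, -0.04 in Hoxc and 0.05 in Hoxd. The Hoxb sum was 4.34 FPKM in P14 KIT, against 11.8 FPKM in P12 KIT. Hoxb9 was thus lower at P14 than at P12 in both selections. In P14 KIT all 10 Sertoli markers (median -2.67) and 5 of 7 endothelial markers (median -1.59) were lower and 5 of 7 Leydig markers were higher than in P12 KIT, and their part was not tested.

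At P7, Hoxd8, Hoxd9, Hoxd10 and Hoxb9 were lower in the reporter sorts than in THY1 cells, and the number of HOX genes called was close to the share over all genes. In OCT4-GFP cells 4 HOX genes were lower and none was higher, beside 8.06% of all genes lower and 5.01% higher: Hoxb9 (difference -1.99), Hoxd10 (-1.27), Hoxd8 (-1.13) and Hoxd9 (-1.12). In ID4-GFP cells the same 4 genes were lower and none was higher, beside 10.1% of all genes lower and 4.72% higher, with differences of -1.96 for Hoxb9, -1.88 for Hoxd8, -1.66 for Hoxd10 and -1.55 for Hoxd9. In both sorts 9 of 10 stroma markers and all 8 myoid markers were lower than in P7 THY1, with median stroma differences of -1.79 in OCT4-GFP and -2.47 in ID4-GFP. Also lower in both were 6 of 7 endothelial markers (medians -2.99 in OCT4-GFP and -3.08 in ID4-GFP). Of 10 Sertoli markers 6 were lower in OCT4-GFP and 8 in ID4-GFP, and of 7 Leydig markers 3 were lower in OCT4-GFP and 5 in ID4-GFP. Of 8 macrophage markers 7 were higher in OCT4-GFP and 6 were lower in ID4-GFP. The part of these cells was not tested.

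P7 VASA THY1 had these 4 genes and Hoxb6 lower. Against P7 THY1, 5 HOX genes were lower and none was higher, beside 7.49% of all genes lower and 4.48% higher: Hoxb6 (-1.34), Hoxd9 (-1.13), Hoxd10 (-1.10), Hoxd8 (-1.09) and Hoxb9 (-1.08). Beside them, 6 of 7 endothelial markers (median -2.55), 5 of 7 Leydig markers (median -2.52), 7 of 8 macrophage markers, 6 of 8 myoid markers and 6 of 10 stroma markers were lower, and of 10 Sertoli markers 3 were higher and 1 was lower. Their part was not tested. These 3 comparisons share the P7 THY1 column, the one whose low values may rest on the fewest fragments. With P7 VASA THY1 as the group set against the reporter sorts, no HOX gene was called in either, and the Hoxd9 difference of OCT4-GFP cells was 0.012. Between the reporters, no HOX gene was higher or lower in ID4-GFP than in OCT4-GFP cells at P7, beside 0.0144% of all genes higher and 1.86% lower.

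Across the columns the HOX sum of Hoxa, Hoxc and Hoxd stood in much the same order as the stroma markers. P7 ID4-GFP was lowest in both, with 2.70 FPKM of these HOX genes beside 56.3 FPKM of 10 stroma markers. Of that marker sum Fbln1 gave 29.5 FPKM and Col1a1 16.8 FPKM. Fbln1 did not follow the other markers, as it had 23.6 to 32.5 FPKM in the GFP columns and 11.7 to 20.0 FPKM in the KIT and THY1 columns after P0. P14 THY1 and P0 THY1 were highest in both, with 49.3 FPKM beside 1408 FPKM and with 141 FPKM beside 7006 FPKM. The Hoxb sum had no such order, as P0 OCT4-GFP, with 83.6 FPKM of stroma markers, had 17.2 FPKM of Hoxb, beside 17.3 FPKM in P0 THY1. Stroma markers were detected in the GFP columns as well, at 1 FPKM or more in 9 of 10 in both OCT4-GFP columns and in 5 of 10 in P7 ID4-GFP.

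**Figure D5:**
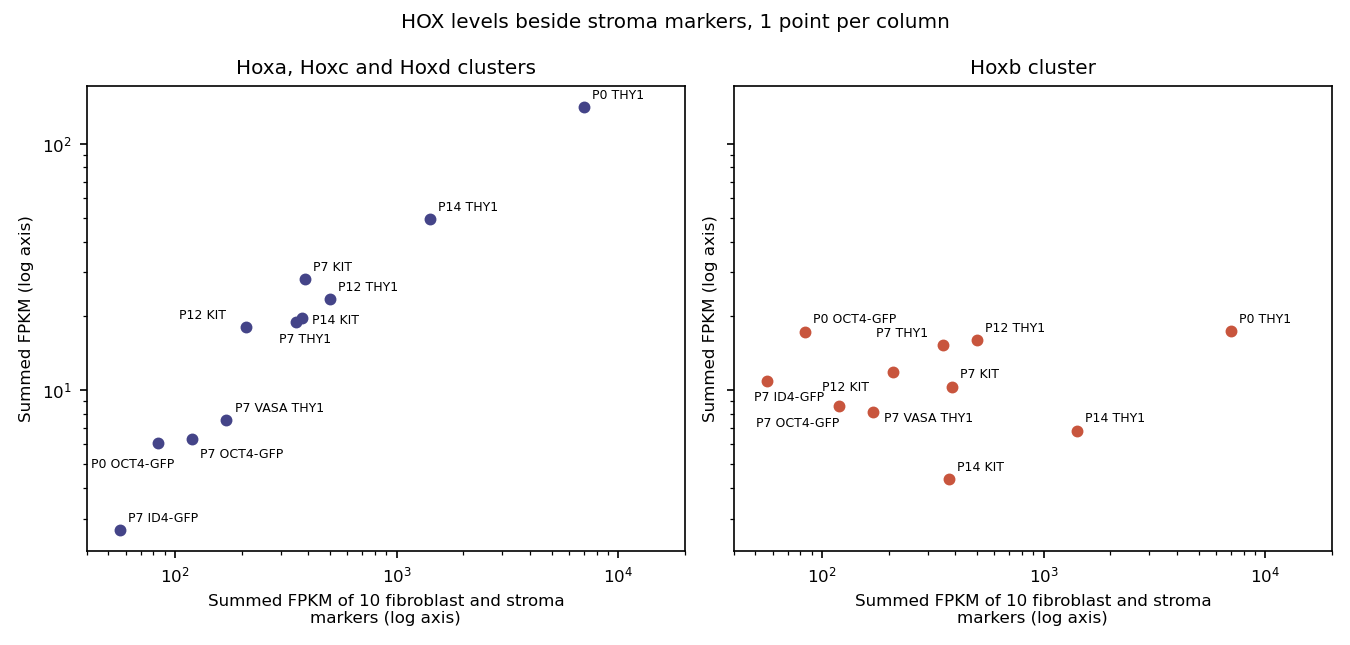
Summed FPKM of the Hoxa, Hoxc and Hoxd clusters (left) and of the Hoxb cluster (right) against the summed FPKM of 10 fibroblast and stroma markers, on log axes, with 1 labelled point per column. On the left the points run between 2.70 FPKM in P7 ID4-GFP and 141 FPKM in P0 THY1 in nearly the order of the markers, and on the right they lie between 4.34 and 17.3 FPKM.

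Of the 9 HOX cofactor genes, all in the table, several shared the P0 THY1 level. Meis1, a partner of the posterior HOX proteins, had 1.83 FPKM in P7 THY1, against 48.3 FPKM in P0 THY1, a difference of -4.12. Meis2, Pknox2, Meis3 and Pbx3 were also lower in P7 THY1 (differences -3.75, -2.38, -1.75 and -1.47). In all, 6 of 9 were lower and none was higher, beside 13.7% of all genes lower and 3.77% higher. The median difference was -1.75, beside -0.06 over all genes. In P0 OCT4-GFP 5 of 9 were lower than in P0 THY1, beside 16.4% of all genes, with Meis1 (-5.03), Meis2 (-3.33), Pknox2 (-3.15) and Meis3 (-2.46) among the 5. Pbx3 was not among these.

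Other cofactors were measured in all columns. Pbx2 was between 31.6 and 66.3 FPKM, and it was higher in the GFP columns, at 60.2 to 66.3 FPKM, than in any other column except P7 VASA THY1 at 60.9 FPKM. Pbx3 was higher in KIT than in THY1 cells at P12, with 30.1 FPKM in P12 KIT, against 8.98 FPKM in P12 THY1 (difference 1.64), and at P14, with 26.7 FPKM in P14 KIT, against 6.35 FPKM in P14 THY1 (difference 1.91). Pbx4, the PBX gene of the testis, had 3.63 FPKM in P14 KIT, against 49.2 FPKM in P14 THY1 (difference -3.44). P14 THY1 was thus the highest column for both Pbx4 and Hoxa4, and Pbx4 was 3.98 higher there than in P12 THY1 on the log2 scale.

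Of 23 genes that regulate the clusters, 22 were in the table, MLL1 under its older symbol Mll1, and they were called in both directions against P0 THY1. In P7 THY1, 3 were higher and 1 was lower, beside 3.77% of all genes higher and 13.7% lower, with a median of 0.09. Kdm6b, an H3K27 demethylase, had 22.2 FPKM in P7 THY1, against 8.35 FPKM in P0 THY1 (difference 1.31), and the Polycomb gene Cbx2 had 25.5 FPKM in P7 THY1, against 11.1 FPKM in P0 THY1 (difference 1.12). The third was Jarid2, listed at 0 in P0 THY1. The retinoic acid receptor gene Rarb had 0.223 FPKM in P7 THY1, against 5.78 FPKM in P0 THY1, a difference of -2.47. In P0 OCT4-GFP 4 regulators were higher than in P0 THY1 (Ezh1, Jarid2, Cbx2 and Cbx7) and 4 were lower (Kdm6b, Rnf2, Rarb and Rarg). Beside them, 8.17% of all genes were higher and 16.4% lower. Jarid2 was counted here too through its value of 0 in P0 THY1. In KIT against THY1 cells, none was called at P7, Rarb was higher in P12 KIT (1.15), Kdm6a (1.66) and Suz12 (1.04) were higher in P14 KIT and Cbx7 was lower there (-1.51). Of all genes, 1.65% were higher and 2.06% lower in P7 KIT, 2.7% and 3.82% in P12 KIT, and 4.61% and 9.34% in P14 KIT. The Cdx genes, which switch on trunk HOX genes in the embryo, stayed below 1 FPKM in every column, with 0.946 FPKM for Cdx1 in P0 THY1 as the highest.

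Of 8 homeobox genes that lie beside the HOX clusters or are their close relatives, Meox1, a somite gene, had the highest levels. It had 6.95, 1.40 and 0.206 FPKM in KIT cells at P7, P12 and P14, and 6.92, 4.18, 1.82 and 0.222 FPKM in THY1 cells at P0, P7, P12 and P14, and it was at most 0.453 FPKM in the GFP columns. Meox1 was therefore low in both P14 columns, like Hoxb9. None of the noncoding genes of the clusters sought by name was a row of the table. Hoxa11as, taken up because its row was there, had at most 0.380 FPKM. Of 17 gonadal mesenchyme transcription factors, 10 were lower and 1 was higher in P7 THY1 than in P0 THY1, beside 13.7% of all genes lower and 3.77% higher. Tcf21, a factor of testis interstitial cells, had 6.49 FPKM in P7 THY1, against 82.5 FPKM in P0 THY1 (difference -3.48).

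The genes whose levels were most like the summed HOX level were ranked by Pearson r of log2(FPKM + 1) over the 11 columns, among 12259 other genes with at least 5 FPKM in some column. The first was Ror1, a receptor for WNT5A, with r = 0.990. Ror1 had 0.544 and 0.243 FPKM in OCT4-GFP cells at P0 and P7, 0.218 FPKM in P7 ID4-GFP and 0.330 FPKM in P7 VASA THY1. It had 1.70, 0.955 and 1.04 FPKM in KIT cells at P7, P12 and P14, and 8.24, 1.85, 1.86 and 2.63 FPKM in THY1 cells at P0, P7, P12 and P14. S100a16 (0.979), A4galt (0.978), Pxk (0.977), Pdlim2 (0.977), Atp2a3 (0.974), Tbx2 (0.974), Arsk (0.974), Lgals9 (0.974) and the cofactor gene Pknox2 (0.973) followed. The columns differ in their marker levels of other cells, as given above. Without P0 THY1, Ror1 was again first, at r = 0.974, and 3 of the 10 genes were among the first 10.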

How the data were processed

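RNA was measured by sequencing of ribosome-depleted, directional libraries, per the labels' protocols. The submitters' processing notes list CASAVA, TopHat2 2.0.9, Cufflinks 2.1.1 and the mouse build mm9; the annotation, the order of steps and any scaling between libraries are not given in the sources used here. The authors deposited FPKM for 20889 gene symbols in 11 columns, 1 per group, from 16 RNA libraries; how the 2 libraries behind a column were combined is not stated. The 8 bisulfite and 6 chromatin or input samples of the 30 in the series were not analysed here.

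Python 3.11.15 with pandas 2.3.3 and numpy 2.4.6 gave the differences of log2(FPKM + 1), and matplotlib 3.10.9 the figures; the calculation was tested on simulated data. With 1 value per group there is no test. The rule of size was 2-fold with 1 FPKM or more in the higher column. Its share over all 20889 genes is given beside the reported HOX counts of each comparison and the counts of cofactors, regulators and mesenchyme factors. It is not given beside each marker count or each count under the alternatives. Every HOX gene could be named; in each comparison up to 8 members past the rule are named per direction. Of the other lists, members of highest level or past the rule are named. Alternatives were a pseudocount of 0.1, no filter, at least 5 FPKM, 4-fold, quantile normalisation and P7 VASA THY1 in place of P7 THY1. The members and lists were chosen with earlier results of these data known. Depth is unknown apart from the step between values under 0.05 FPKM, so no interval is given. Overlaps between genes come from RefSeq GRCm38.p6, used for names, overlaps and promoters only; 14 HOX genes overlap another HOX-named gene there, and the counting of shared reads is not stated, so their values are uncertain. A few single-gene values are not reported here.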

Additional observations from a re-analysis of the deposited data

How the results depend on the processing

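Of 67 member differences over 14 comparisons, recomputed under 363 alternatives in all, 246 kept their direction and side of the rule, 115 kept their direction but were no longer past it, and 2 reversed: Hoxb6 in P12 against P7 THY1 (0.31) and Hoxd9 in P7 OCT4-GFP against P7 THY1 (0.012), both with P7 VASA THY1 in place of P7 THY1. The cause was not tested. Omitting the filter gave the same counts by construction, since 2-fold on log2(FPKM + 1) needs at least 1 FPKM. The 246 therefore include all 67 member differences under that setting, where the outcome was fixed in advance.

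Counts of called HOX genes that moved by over 1.5 times follow, each as the count under the alternative for the reported one. The share over all genes moves with the setting as well. In P7 against P0 THY1, 17.4% of all genes were called as reported and 23.4% with a pseudocount of 0.1. A pseudocount of 0.1 gave 2 for 1 in P12 against P7 THY1, 2 for 0 in P7 KIT, 3 for 0 in P12 KIT and 5 for 3 in P14 KIT against THY1, 6 for 2 in P12 against P7 KIT, 4 for 1 in P14 against P12 KIT, 7 for 4 in P7 OCT4-GFP and in P7 ID4-GFP against THY1, and 1 for 0 in ID4-GFP against OCT4-GFP. At least 5 FPKM gave 9 for 24 in P0 OCT4-GFP against THY1, 9 for 19 in P7 against P0 THY1, 1 for 2 in P12 against P7 KIT, 1 for 4 in P7 OCT4-GFP and P7 ID4-GFP and 1 for 5 in P7 VASA THY1 against THY1, and 0 for 1 in P12 against P7 THY1, P14 against P12 KIT and P7 against P0 OCT4-GFP. At 4-fold the counts were 10 for 24 and 8 for 19 in the P0 comparisons, 1 for 3 in P14 KIT against THY1, and 0 for P12 against P7 THY1, P12 against P7 KIT, P14 against P12 KIT, P7 OCT4-GFP, P7 ID4-GFP and P7 VASA THY1 against THY1, and P7 against P0 OCT4-GFP. Quantile normalisation gave 1 for 3 in P14 KIT, 2 for 4 in P7 OCT4-GFP and 2 for 5 in P7 VASA THY1 against THY1, and 0 for 1 in P7 against P0 OCT4-GFP. P7 VASA THY1 in place of P7 THY1 gave 4 for 1 in P12 against P7 THY1, 5 for 0 in P7 KIT, and 0 for 4 in P7 OCT4-GFP and P7 ID4-GFP. At 5 FPKM, 10 in place of 32 HOX genes were present in some column. The likeness of Ror1 was 0.982 as Spearman rho and 0.974 without P0 THY1, against 0.990.

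No paired analysis was possible because the table holds 1 value per group and its columns carry no replicate numbers, so leaving out a replicate was not run either. Values below 1 FPKM are the least certain, above all in P7 THY1.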
